A study of Mus musculus with 6 samples.

Results

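Steroid hormone synthesis was followed in mouse ovarian granulosa cells through 10 genes out of 27151 gene IDs in the expression table. These genes were chosen by name, with earlier results of these data known. They were the cholesterol carrier Star, the side-chain cleavage enzyme Cyp11a1 with its electron donors Fdx1 and Fdxr, the dehydrogenases Hsd3b1, Hsd17b1 and Akr1c18, the P450 reductase Por, and the nuclear receptors Nr5a1 and Nr5a2. All 10 were found and all passed the filter on low values. The tested cells received GSK4112, an agonist of the heme-binding receptor NR1D1 (REV-ERBα), which represses transcription in the circadian clock, and the Control cells did not. Cells of both groups came from punctured mouse ovarian follicles and grew for 24 h with 10% serum, then went without serum for 12 h before the 24 h of treatment. Each group had 3 libraries of bulk RNA. The labels give neither strain, genotype nor age. Nor do they tie the replicates to separate cultures or mice. A p-value here therefore weighs a group difference only against the spread among these 6 samples, and that spread may be technical.

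Steroid synthesis starts when STAR brings cholesterol to the inner mitochondrial membrane. There CYP11A1 cuts the side chain to give pregnenolone, with electrons that FDXR takes from NADPH and FDX1 hands on. HSD3B turns pregnenolone into progesterone, while estradiol comes from androgens through aromatase (Cyp19a1, served by POR) and HSD17B1. In the mouse AKR1C18 ends the action of progesterone by reducing it to a weak metabolite. NR5A1 (SF-1) and NR5A2 (LRH-1) bind the promoters of many of these genes as single molecules. Granulosa cells make mostly estradiol before ovulation and mostly progesterone after it.

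RNA of the progesterone-forming enzymes was abundant in both groups, and aromatase RNA was close to absent. Hsd17b1, the last enzyme of estradiol synthesis, fell with GSK4112 to 0.401 of its Control level on the scale of the fit, FPKM + 1. Akr1c18 and Cyp11a1 were lower in every GSK4112 library than in any Control library but did not pass the threshold there. The groups overlapped for the other 7 members, among them Star, Hsd3b1 and both Nr5a receptors.

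Promoter sequences are shown for members whose first stretch holds the core letters of an NR5A or NR1D1 site, since both kinds of receptor could be looked for at these genes. RefSeq (GRCm38.p6) gave 9 start-site windows for 7 of the members, each from 250 bases before to 50 bases after a start site. No window is given for Star, Hsd17b1 or Nr5a1. Both strands were searched. Capitals mark TCAAGG, the first letters of an NR5A site, in either reading (CCTTGA on the other strand), in the 250 bases before the Fdx1 start site (chr9:51963603-51963852, minus strand).
Fdx1: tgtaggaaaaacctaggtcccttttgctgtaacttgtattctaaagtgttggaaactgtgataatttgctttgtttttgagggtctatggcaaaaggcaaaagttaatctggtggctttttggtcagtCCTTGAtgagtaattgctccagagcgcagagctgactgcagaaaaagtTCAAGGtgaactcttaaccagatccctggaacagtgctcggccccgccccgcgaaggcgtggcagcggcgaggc
The Cyp11a1 stretch covers the 250 bases before a start site (chr9:58014702-58014951, plus strand), with AGGTCA, the core of many nuclear receptor sites, in capitals.
Cyp11a1: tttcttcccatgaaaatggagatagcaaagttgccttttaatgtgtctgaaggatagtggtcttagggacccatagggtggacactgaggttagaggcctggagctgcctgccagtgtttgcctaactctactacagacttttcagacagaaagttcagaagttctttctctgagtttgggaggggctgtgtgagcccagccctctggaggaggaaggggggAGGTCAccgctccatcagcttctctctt
In 30 bases across the same Cyp11a1 start site (chr9:58014942-58014971, plus strand) and in 30 bases of Hsd3b1 that end 111 bases before its start (chr3:98859905-98859934, minus strand), capitals mark CCTTGA.
Cyp11a1 start: cttctctcttagCCTTGAgctggtggttat
Hsd3b1: aaaaaattatctCCTTGAttctcagaattc
In the Akr1c18 bases that begin 15 bases into the transcript (chr13:4150603-4150632, minus strand), capitals mark TAGGTCA, the core of an NR1D1 monomer site, which contains AGGTCA.
Akr1c18: gagagaatcttcTAGGTCAgagcagtggct
In 30 bases before an Nr5a2 start site (chr1:136960495-136960524, minus strand), capitals mark AGGTCA.
Nr5a2: atggtttacagcAGGTCAtacatgctggaa

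TCAAGG occurred in 3 of the 9 windows (Cyp11a1, Fdx1 and Hsd3b1) and in 14.44% of all 32851 RefSeq windows of the same 300 bases. AGGTCA occurred in 3 (Akr1c18, Cyp11a1 and Nr5a2) and in 16.26% of all windows, and TAGGTCA in 1 (Akr1c18) and in 2.61%. The longer NR5A motif CAAGGTCA was in 0 of the 9 windows and in 1.56% of all, and its looser form CAAGGNCA in 0 and in 6.71%. In Fdx1 the matches began 122 and 74 bases before the start site, and in Cyp11a1 the AGGTCA began 28 bases before it. Such matches are a description of the letters, and no binding was measured.

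The libraries held 16559256 to 18158273 fragments, read back from the steps of the FPKM values (fragments per kilobase of exon, scaled to library size), and 12012 to 12290 genes reached an FPKM of 1. Every member value of every library came out as a whole number of fragments within 0.01, from 32 to 93760 fragments. Akr1c18 had 32 to 430 fragments and every other member at least 479. Of 10 granulosa markers 8 had a mean of at least 1 FPKM, and their sums were 1749 to 2564 FPKM in GSK4112 libraries and 2361 to 2679 FPKM in Control libraries. The granulosa genes below that level were Amh and Cyp19a1. All 6 luteal markers, among them Lhcgr and the member Akr1c18, had a mean of at least 1 FPKM. They summed to 387 to 545 FPKM with GSK4112 and to 433 to 461 FPKM in Control. Of 6 stroma or fibroblast markers 2 reached that mean (sums 9.98 to 18.3 FPKM with GSK4112, 9.23 to 32.6 FPKM in Control). Of 6 surface epithelium markers 3 did (1.71 to 6.51 and 2.56 to 7.01 FPKM in GSK4112 and Control). Of the 7 oocyte markers found 0 did (0.438 to 2.01 and 0.165 to 3.61 FPKM in GSK4112 and Control). Of 8 theca markers 4 did, but the theca genes Cyp17a1 and Insl3 were at or near 0. So were the leukocyte genes Ptprc and Adgre1 and the 5 endothelial markers. Of the 6 leukocyte markers, however, 2 had a mean of at least 1 FPKM, and the list summed to 38.2, 16.9 and 19.1 FPKM with GSK4112 and to 41.2, 13.6 and 7.19 FPKM in Control. That sum was highest in the replicate 1 libraries, and its part in the results was not tested. The replicate 1 libraries stood apart in both groups. Their 10 proliferation markers summed to 120 FPKM with GSK4112, where replicates 2 and 3 had 24.9 and 21.5 FPKM. In Control libraries these sums were 163 FPKM in replicate 1 and 39.6 and 46.2 FPKM in replicates 2 and 3. Theca markers, nearly all of it Acta2 and the member Star, summed to 194, 117 and 130 FPKM with GSK4112 and to 264, 114 and 95.4 FPKM in Control. Values without both replicate 1 libraries are therefore given for members whose replicate 1 values lie apart. In bulk RNA fewer cells of a type and less RNA per cell cannot be told apart.

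**Figure D1:**
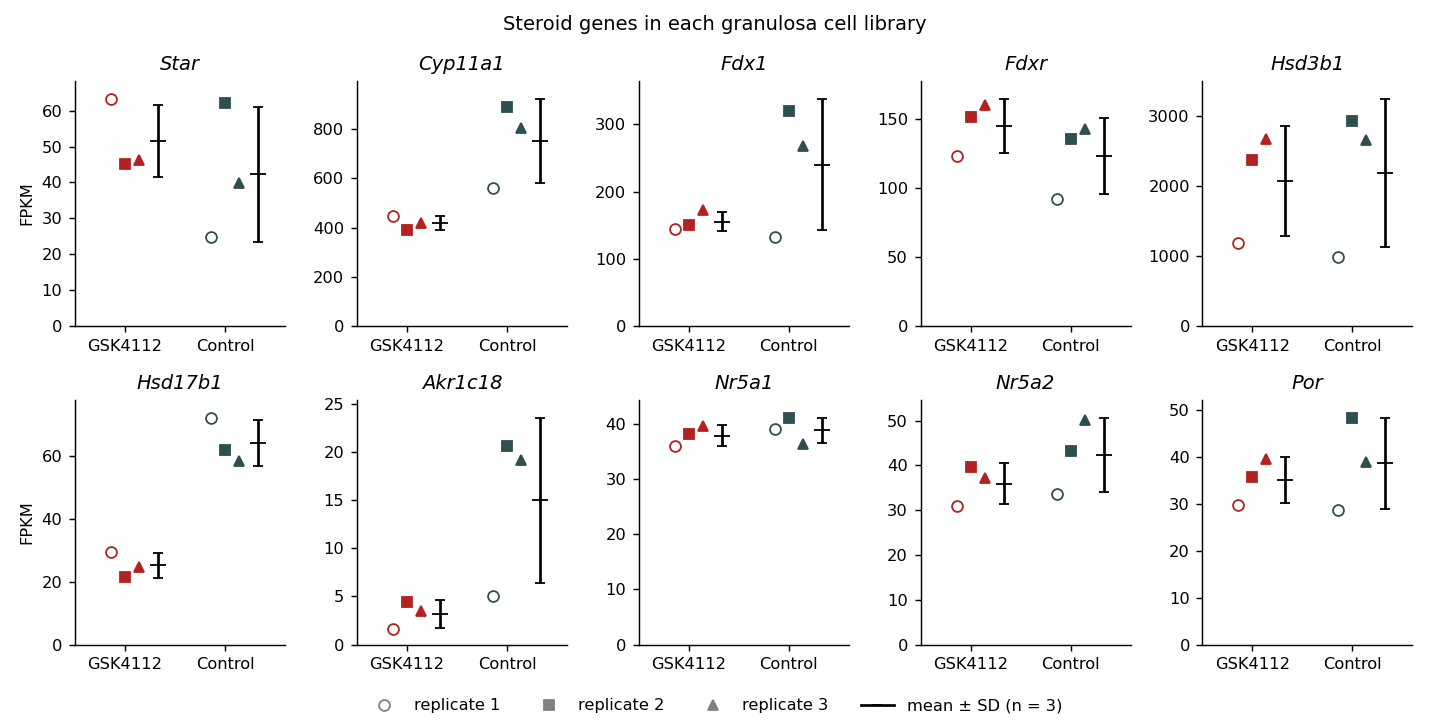
FPKM of the 10 steroid genes (y axis, linear from 0) in each library, GSK4112 at left and Control at right, with a symbol per replicate number and the mean with SD (n = 3) beside each group. Hsd17b1, Akr1c18 and Cyp11a1 show no overlap between groups, and the open circles of replicate 1 lie low for Hsd3b1 in both groups.

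Levels are compared here per length, in FPKM averaged over all 6 libraries. Hsd3b1 was the most abundant member at 2130 FPKM, followed by Cyp11a1 at 585, Fdx1 at 198 and Fdxr at 134 FPKM. The range of Hsd3b1 lay above that of Cyp11a1, and that of Cyp11a1 above that of Fdx1, while Fdx1 and Fdxr overlapped. Length here counts all exons of a gene, 4804 bases for Cyp11a1, whose longest transcript has 3439 bases. For Hsd3b1 both lengths are 1855 bases. A shorter length would raise the Cyp11a1 values, so the gap between the ranges of Hsd3b1 and Cyp11a1 depends on the length taken. Star (46.9), Hsd17b1 (44.8), Nr5a2 (39.1), Nr5a1 (38.3) and Por (36.8 FPKM) formed a middle group whose neighbours overlapped. All of them lay below Fdxr on average, and Star lay below it in all 6 libraries. Akr1c18 was lowest at 9.05 FPKM, below Por in all 6 libraries. The enzymes that make pregnenolone and progesterone, with their electron donors, thus held the 4 highest levels, and the enzyme that inactivates progesterone the lowest.

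The members were chosen with earlier results of these data known, so their shares beside those of all genes are only a description. Of the 10 members, 8 had a log2 difference below 0, against 39.1% of all 12181 genes tested, and their median was -0.17 against 0.05 for all genes. Both figures moved with single libraries. Without Control replicate 2, 5 of the 10 were below 0 and the median was -0.096. The median was -0.063 without GSK4112 replicate 1 (6 below 0), -0.093 without Control replicate 3 (7 below 0) and -0.44 without Control replicate 1 (8 below 0). In limma 1 of the 10 was called at an adjusted p under 0.05 (Hsd17b1, lower), where 1.03% of all genes tested were called, 0.624% lower and 0.410% higher. With limma-voom on the recovered fragments it was the same 1, where 1.41% of genes were called. With the replicate number as a block 2 were called (Hsd17b1 and Akr1c18, both lower), where 6.89% of all genes were, 3.82% lower and 3.07% higher. No label says that same-numbered libraries belong together. In their deviations from the group means, GSK4112 replicates 2 and 3 each correlated better with a Control library of another number. Every value given with the block has this limit. Without both replicate 1 libraries 4 were called (Cyp11a1, Fdx1, Hsd17b1 and Akr1c18, all lower), where 7.03% were, and the same 4 when the block was added, where 9.35% were. The groups did not overlap for 3 of the 10, all lower with GSK4112, while 23.6% of all genes did not overlap, 7.90% lower and 15.7% higher.

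**Figure D2:**
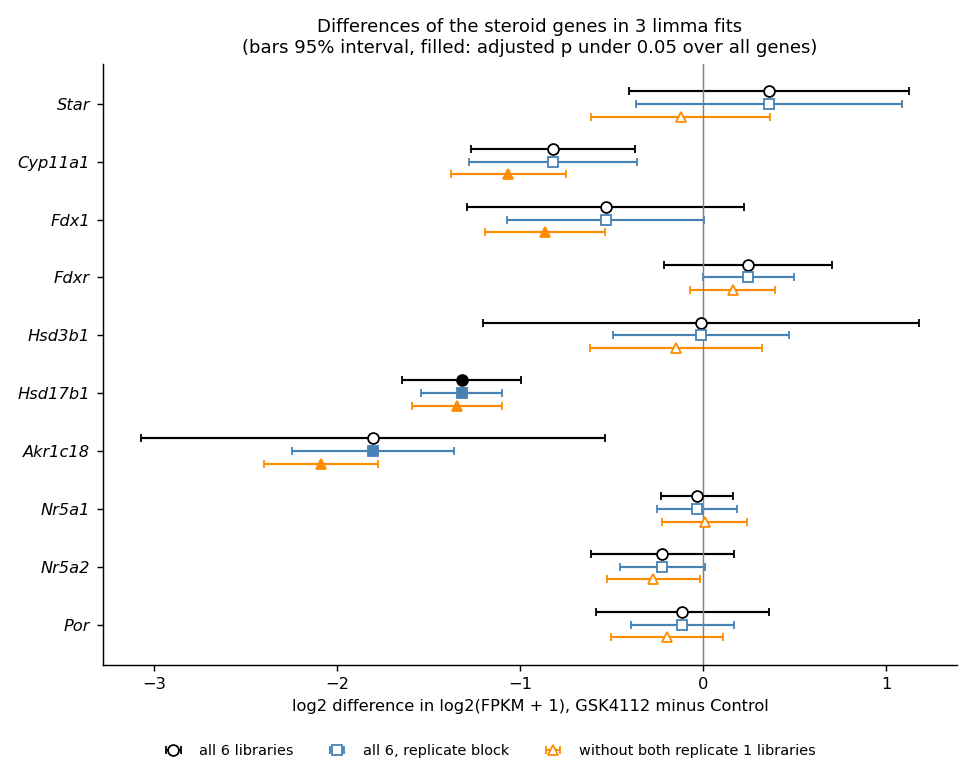
Difference of each steroid gene in log2(FPKM + 1), GSK4112 minus Control, with its 95% interval in 3 limma fits, filled where the adjusted p over all genes was under 0.05. Hsd17b1 is filled in all 3, Akr1c18 in 2, and Cyp11a1 and Fdx1 only without the replicate 1 libraries.

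The entry step came first. Star (ENSMUSG00000031574; GRCm38 chromosome 8, 25806555 to 25815982, plus strand) had 63.2, 45.2 and 46.2 FPKM in GSK4112 replicates 1, 2 and 3, against 24.7, 62.2 and 39.8 FPKM in Control. The highest value was GSK4112 replicate 1 and the lowest Control replicate 1, with Control replicate 2 almost at the top. The means were 51.5 ± 10.1 FPKM with GSK4112 and 42.2 ± 18.9 FPKM in Control (SD, n = 3 each), a log2 difference of 0.36 ± 0.32 (SE; limma adjusted p = 0.6082). Its sign hung on the replicate 1 pair, and without both of these libraries it was -0.12. The same-numbered differences were 1.32, -0.45 and 0.21, the widest spread among the members.

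Cholesterol must also reach the mitochondria. Of 15 listed genes of cholesterol uptake, storage and delivery, all were tested and 0 were called in limma or in limma-voom, with 3 at an unadjusted p under 0.05 and a median log2 difference of -0.12. Over all 12181 genes 2065 had an unadjusted p that low, which is the background for this count and for those of the lists that follow. With the block 1 was called higher (6.67% of the list, against 6.89% of all genes called in either direction). This was Acbd3, chosen after its values were seen, which encodes a partner of the mitochondrial protein TSPO. It had 17.9, 18.1 and 18.5 FPKM with GSK4112, against 13.5, 12.9 and 14.8 FPKM in Control (log2 difference 0.38, adjusted p = 0.08654 in limma and 0.04798 with the block). It was called in that 1 of 18 alternatives, and the block with TPM or median-of-ratios scaling gave 0.06697 and 0.07114. The 2 most abundant of the list did not pass. Lonp1, the matrix protease that degrades STAR, averaged 108 FPKM with GSK4112 and 104 FPKM in Control (log2 difference 0.07 ± 0.15 SE, adjusted p = 0.8406). Vdac1, an outer membrane channel, averaged 91.2 FPKM with GSK4112 and 99.9 FPKM in Control (-0.12 ± 0.12 SE, adjusted p = 0.6340).

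Cyp11a1 (ENSMUSG00000032323; chromosome 9, 58006411 to 58027023, plus strand) commits cholesterol to steroid synthesis. It had 446, 388 and 420 FPKM with GSK4112, against 559, 889 and 805 FPKM in Control. Every GSK4112 library lay below every Control library, and Control replicate 1 lay between the GSK4112 libraries and the other Control libraries. The means were 418 ± 28.98 FPKM with GSK4112 and 751 ± 171 FPKM in Control (SD, n = 3 each). The log2 difference was -0.82 ± 0.19 (SE; 95% interval -1.27 to -0.37; limma adjusted p = 0.1029), and it missed the threshold with the block too (0.05733). Leaving out Control replicate 1 gave -1.02 with an adjusted p of 0.03236, and leaving out both replicate 1 libraries gave -1.07 with 0.01027. The gene's exons share 145 bases (3.0%) with Gm17322 on the same strand, whose reads cannot be separated here.

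Fdx1, the ferredoxin that passes single electrons to CYP11A1 (ENSMUSG00000032051; chromosome 9, 51943306 to 51963556, minus strand), had 144, 150 and 172 FPKM with GSK4112. It had 132, 321 and 268 FPKM in Control. The groups overlapped through Control replicate 1 alone, the lowest of all 6 values. The log2 difference was -0.53 ± 0.32 (SE; limma adjusted p = 0.4446; 0.1994 with the block). Without Control replicate 1 it was -0.92 (adjusted p = 0.04368), and without both replicate 1 libraries -0.86 (adjusted p = 0.0213). The proliferation sum was highest in that same Control library, and its part in the result was not tested.

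Fdxr, the reductase that loads the ferredoxin (ENSMUSG00000018861; chromosome 11, 115268024 to 115277050, minus strand), had 123, 151 and 160 FPKM with GSK4112. Its Control values were 91.9, 136 and 142 FPKM. Each GSK4112 library was above the Control library of its number, by 0.42, 0.15 and 0.17 on the log2 scale, but the groups overlapped. Fdxr was the 1 member with all 3 such differences above 0, as 29.8% of all genes were. The fitted difference was 0.25 ± 0.19 (SE; adjusted p = 0.5568 in limma). Replicate 1 was the lowest library of each group, and without both the difference was 0.16 (adjusted p = 0.3546).

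Hsd3b1 makes progesterone from pregnenolone (ENSMUSG00000027871; chromosome 3, 98852194 to 98859794, minus strand). Its values were 1181, 2366 and 2669 FPKM with GSK4112, against 982, 2928 and 2654 FPKM in Control. Replicate 1 was far below the other replicates in both groups, while the groups covered the same range. The log2 difference was -0.01 ± 0.50 (SE; 95% interval -1.20 to 1.18; limma adjusted p = 0.9946). That interval is wide, and with the block it ran from -0.49 to 0.47. Without both replicate 1 libraries the difference was -0.15 (adjusted p = 0.6722 in limma). A match of 9.0% of its transcript at 95% identity or more to Gm12431 makes a small share of its reads uncertain. Its paralog Hsd3b6, also a 3β-hydroxysteroid dehydrogenase, was under the filter, with 17, 26 and 27 fragments with GSK4112 and 1, 0 and 2 fragments in Control. The groups did not overlap. In the fit with no filter on low values the log2 difference was 0.77 ± 0.09 (SE; adjusted p = 0.06997 in limma). For a gene this low the log2(FPKM + 1) scale understates the change seen in the fragments.

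The estradiol branch was nearly without aromatase. Cyp19a1, which makes estrogens from androgens, had 1, 6 and 13 fragments with GSK4112 and 2, 12 and 3 fragments in Control, a mean of under 0.1 FPKM in each group. Cyp17a1, the theca enzyme that makes the androgens, had 0, 1 and 3 fragments with GSK4112 and 1, 0 and 3 fragments in Control. No difference in either gene was detectable at this depth. Por, which feeds electrons to both of these microsomal P450 enzymes (ENSMUSG00000005514; chromosome 5, 135670033 to 135735326, plus strand), had 29.8, 35.8 and 39.6 FPKM with GSK4112. In Control it had 28.7, 48.2 and 38.9 FPKM, so the groups overlapped almost fully (log2 difference -0.11 ± 0.20 SE, limma adjusted p = 0.8060). Without both replicate 1 libraries, the lowest of each group, the Por difference was -0.20 (adjusted p = 0.3888 in limma).

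Hsd17b1 reduces estrone to estradiol and in rodents also androstenedione to testosterone (ENSMUSG00000019301; chromosome 11, 101078411 to 101080527, plus strand). It had 29.4, 21.6 and 24.7 FPKM with GSK4112, against 72.4, 62.0 and 58.4 FPKM in Control. The highest GSK4112 value was far under the lowest Control value, and the replicate 1 libraries were the highest of their own group. Hsd17b1 fell, with means of 25.3 ± 3.94 FPKM with GSK4112 and 64.3 ± 7.25 FPKM in Control (SD, n = 3 each) and a log2 difference of -1.32 ± 0.14 (SE; 95% interval -1.64 to -0.99; limma adjusted p = 0.01867). It ranked 22 by p among 12181 genes, and 0.427% of genes had a larger drop. The same-numbered differences were -1.27, -1.48 and -1.21, closer together than those of Cyp11a1, Fdx1 or Akr1c18. Those of Nr5a1 and Fdxr lay at least as close together. For Hsd17b1 the block gave an adjusted p of 0.002357. The exact permutation test of the 6 values gave its smallest possible 2-sided p, 0.1. With 5 libraries the size held at -1.43 to -1.22, but the call was lost without GSK4112 replicate 2 (0.0829), GSK4112 replicate 3 (0.1269), Control replicate 2 (0.07822) or Control replicate 3 (0.06796). Without both replicate 1 libraries it was -1.34 (adjusted p = 0.00263).

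Akr1c18, the mouse 20α-hydroxysteroid dehydrogenase that inactivates progesterone (ENSMUSG00000021214; chromosome 13, 4132615 to 4150654, minus strand), showed the largest difference of the set. It had 1.57, 4.45 and 3.43 FPKM with GSK4112 (32, 89 and 72 fragments). In Control it had 5.06, 20.6 and 19.1 FPKM (111, 430 and 384 fragments). Replicate 1 was the lowest library of each group, and the highest GSK4112 value stayed just under the lowest Control value. The log2 difference was -1.80 ± 0.53 (SE; 95% interval -3.07 to -0.54), the 15th largest drop of 12181 genes, with an adjusted p of 0.1631 in limma. With the block it was -1.80 ± 0.18 (adjusted p = 0.006281). It was -2.09 without both replicate 1 libraries (0.001768), and -2.40 without Control replicate 1 alone (0.03753). The value on the log2(FPKM + 1) scale understates the change of a gene this low, and with limma-voom on the fragments it was -2.10 (adjusted p = 0.2215).

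**Figure D3:**
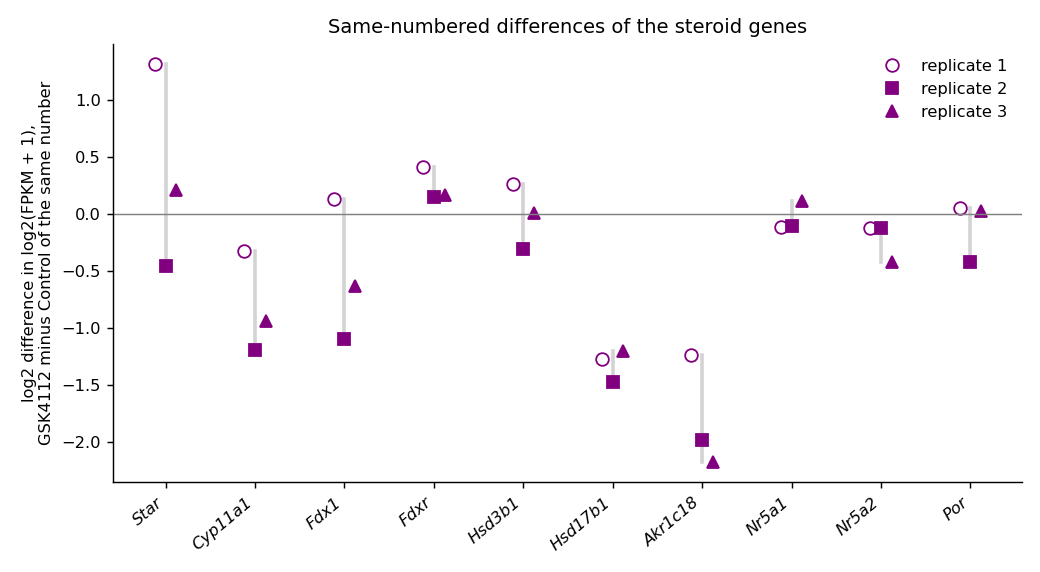
Difference in log2(FPKM + 1) between the GSK4112 and Control libraries of the same replicate number (y axis) for each steroid gene, with a symbol per number. Hsd17b1 sits between -1.48 and -1.21, Star spreads from -0.45 to 1.32, and 4 genes have all 3 points below 0.

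Among the regulators, Nr5a1 (SF-1; ENSMUSG00000026751; chromosome 2, 38692656 to 38714542, minus strand) was the steadiest member. Its values were 35.9, 38.1 and 39.6 FPKM with GSK4112, against 39.0, 41.0 and 36.4 FPKM in Control. The groups overlapped and no library stood apart. The log2 difference was -0.03 ± 0.08 (SE; limma adjusted p = 0.8648), with a 95% interval of -0.23 to 0.16. Nr5a2 (LRH-1; ENSMUSG00000026398; chromosome 1, 136842571 to 136960448, minus strand), the form that granulosa cells need for ovulation in the mouse, had 30.9, 39.7 and 37.2 FPKM with GSK4112. Its Control values were 33.7, 43.3 and 50.1 FPKM. Each GSK4112 library was under the Control library of its number, yet the groups overlapped (-0.22 ± 0.16 SE, adjusted p = 0.5327 in limma). Without both replicate 1 libraries, the lowest of each group, the Nr5a2 difference was -0.27 (95% interval -0.53 to -0.02; adjusted p = 0.1739 in limma). In all, 4 of the 10 members (Cyp11a1, Hsd17b1, Akr1c18 and Nr5a2) had all 3 same-numbered differences below 0, as 18.6% of all genes did. Of the genes whose promoter letters are printed, those with TCAAGG had log2 differences of -0.82 (Cyp11a1), -0.53 (Fdx1) and -0.01 (Hsd3b1). Those with AGGTCA had -1.80 (Akr1c18, as TAGGTCA), -0.82 (Cyp11a1) and -0.22 (Nr5a2). The members whose windows held neither had 0.25 (Fdxr) and -0.11 (Por). Star, Hsd17b1 and Nr5a1 had no window to search. Whether the letters go with the differences was not tested.

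Ratios between members within a library, chosen after the values were seen, show the unequal changes without any scaling between libraries, and no test was made on them. Cyp11a1 over Fdxr was 3.63, 2.57 and 2.62 with GSK4112, against 6.09, 6.55 and 5.65 in Control. Fdx1 over Fdxr was 1.17, 0.991 and 1.07 with GSK4112, against 1.43, 2.36 and 1.88 in Control. Both ratios were lower in every GSK4112 library than in any Control library, so the cleavage enzyme and its ferredoxin were each less abundant relative to the reductase. Cyp11a1 over Star was 7.06, 8.60 and 9.10 with GSK4112, against 22.6, 14.3 and 20.2 in Control, again without overlap. Hsd3b1 over Akr1c18 sets RNA of an enzyme that forms progesterone over RNA of one that inactivates it, and no steroid was measured. This ratio was 753, 531 and 778 with GSK4112, against 194, 142 and 139 in Control. GSK4112 replicate 1 lay between the other GSK4112 libraries in that ratio, and Control replicate 1 was the highest of its group. Hsd17b1 over Cyp11a1 was 0.0659, 0.0556 and 0.0589 with GSK4112, against 0.129, 0.0698 and 0.0726 in Control. Of 9 ratios computed, 5 did not overlap between the groups and 4 did. All of these 5 but Fdx1 over Fdxr hold Cyp11a1, Hsd17b1 or Akr1c18, whose own groups did not overlap. No share over other pairs of genes was computed, so this count has no background. The overlapping ones were Hsd3b1 over Cyp11a1 (2.65 to 6.36 with GSK4112 and 1.76 to 3.30 in Control) and Fdx1 over Cyp11a1 (0.323 to 0.410 with GSK4112 and 0.236 to 0.361 in Control). Nr5a2 over Nr5a1 overlapped too, at 0.860 to 1.04 with GSK4112 and 0.864 to 1.38 in Control. So did Akr1c18 over the related gene Akr1c14, at 0.0579 to 0.0870 with GSK4112 and 0.0454 to 0.129 in Control.

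**Figure D4:**
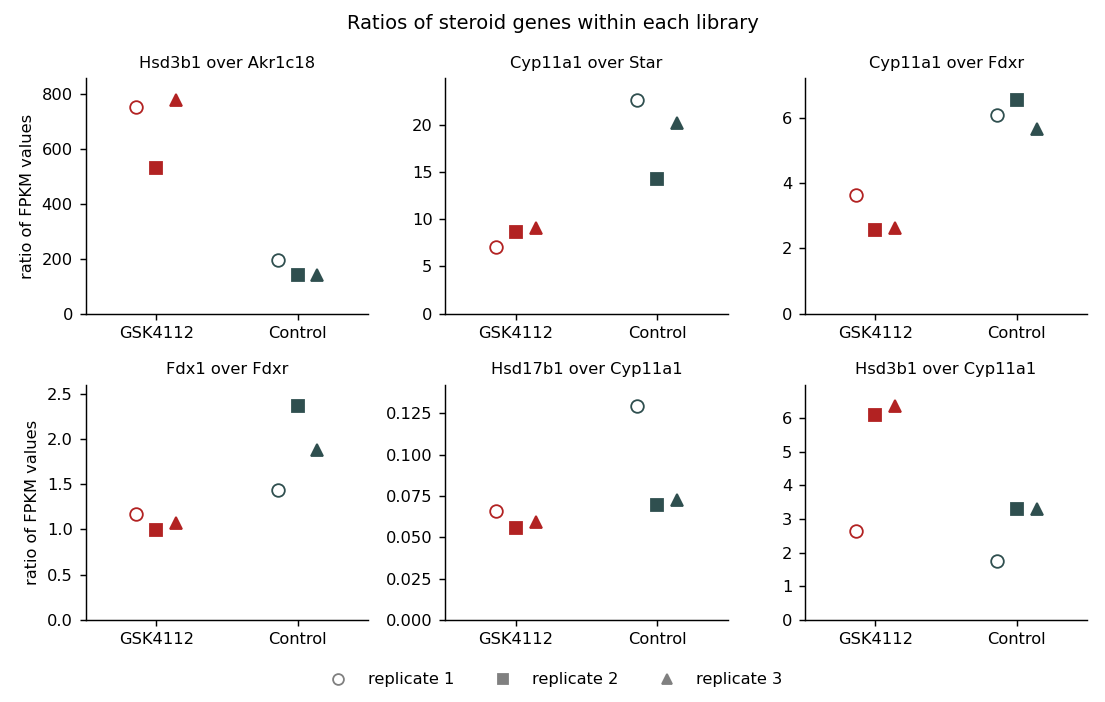
Ratio of the FPKM values of 2 steroid genes in each library (y axes from 0), GSK4112 left of Control, with a symbol per replicate number. Of 9 ratios computed, 6 are drawn, the 5 whose groups do not overlap and Hsd3b1 over Cyp11a1, whose groups do. Hsd3b1 over Akr1c18 is at least 531 with GSK4112 and at most 194 in Control.

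The remaining enzymes of steroid synthesis and breakdown included another Akr1c gene with a large difference. Of 28 listed genes in the table, 12 passed the filter. Of these 0 were called in limma, 1 in limma-voom, and 4 had an unadjusted p under 0.05 in limma, with a median log2 difference of 0.05. With the block 4 were called (33.3%, against 6.89% of all genes), of which 2 were lower and 2 higher. Akr1c14, the mouse 3α-hydroxysteroid dehydrogenase (chromosome 13, 4049011 to 4090688, plus strand), had 27.1, 51.2 and 45.7 FPKM with GSK4112, against 112, 160.5 and 230.1 FPKM in Control. The groups lay far apart, and the log2 difference was -1.98 ± 0.32 (SE; adjusted p = 0.05114 in limma and 0.002357 with the block). Gm18857 matches part of its transcript (7.4% at 95% identity or more), so its level is uncertain by that share.

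The other 3 genes called with the block were taken by their abundance or chosen after their values were seen. Cyp1b1, which hydroxylates estrogens, had 71.2, 179 and 162 FPKM with GSK4112 and 44.1, 114 and 110 FPKM in Control (log2 difference 0.63; adjusted p = 0.5464 in limma and 0.01635 with the block). Its replicate 1 libraries were the lowest of each group, and the groups overlapped. Hsd17b11 was at 16.4 to 17.0 FPKM with GSK4112 and at 11.7 to 13.3 FPKM in Control (0.42; 0.07184 and 0.04477 with the block). Hsd11b2, which inactivates corticosterone, was at 0.875 to 1.32 FPKM with GSK4112 and at 1.89 to 3.05 FPKM in Control (-0.67; 0.1377 and 0.0348 with the block). Hsd17b11 was called in 2 of its 18 alternatives, Hsd11b2 in 3 of 17 and Cyp1b1 in 5 of 18. Of 13 tested partners and other users of P450 electron transfer, 0 were called in limma, in limma-voom or with the block, and 0 had an unadjusted p under 0.05 in limma without it. Their median log2 difference was -0.16. The most abundant were Me1, a source of NADPH (621 FPKM with GSK4112 and 676 FPKM in Control), and Pgrmc1, a heme-binding partner of P450 enzymes (149 and 145 FPKM in GSK4112 and Control). Other genes match 60.1% of the Me1 transcript, so its level is uncertain.

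Of 33 tested transcription regulators of steroid genes, 1 was called in limma (3.03%) and 3 with the block (9.09%). Over all genes 1.03% and 6.89% were called. Foxo1, a forkhead factor that gonadotropin signalling restrains in granulosa cells (chromosome 3, 52268336 to 52353221, plus strand), had 9.90, 9.39 and 10.04 FPKM with GSK4112, against 25.9, 21.3 and 27.6 FPKM in Control. It fell by 1.26 on the log2 scale (± 0.11 SE; limma adjusted p = 0.01115; 0.002475 with the block), and all 3 GSK4112 libraries were alike. That call was lost without GSK4112 replicate 2 (0.0813), GSK4112 replicate 3 (0.1065) or Control replicate 3 (0.05855). Foxo1 shares 7.8% of its exon bases with the antisense gene Gm20402, and the strand setting is not given in the sources used here. The block also called Nr0b2, the corepressor-like receptor SHP that binds NR5A proteins, chosen after its values were seen, at 1.55 to 2.04 FPKM with GSK4112 and 3.03 to 3.79 FPKM in Control (-0.62; 0.08567 and 0.03847 with the block). It called Gata6 too, likewise chosen, a zinc-finger activator of steroid genes, at 19.3 to 30.4 FPKM with GSK4112 and 13.6 to 23.4 FPKM in Control (0.39; 0.4847 and 0.04291 with the block). Nr0b2 was called in 4 of its 17 alternatives and Gata6 in 2 of 18.

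The list's median log2 difference was 0.08, and the other regulators named did not pass. Nr0b1, the DAX-1 repressor of NR5A1, had 0, 3 and 0 fragments with GSK4112 and 4, 6 and 5 fragments in Control and was under the filter. Foxl2, which holds granulosa identity, had 29.9, 45.6 and 50.3 FPKM with GSK4112 and 47.7, 56.4 and 64.4 FPKM in Control (-0.44 ± 0.21 SE, limma adjusted p = 0.3541). Cited2 averaged 392 FPKM with GSK4112 and 407 FPKM in Control (adjusted p = 0.8675 in limma). Ctnnb1, the NR5A partner β-catenin, averaged 189.9 FPKM with GSK4112 and 150.04 FPKM in Control (0.34, adjusted p = 0.3390 in limma). Nr1d1 itself, the target of the agonist, had 12.0, 11.8 and 11.5 FPKM with GSK4112, against 9.24, 8.64 and 9.30 FPKM in Control. Its groups did not overlap (0.34 ± 0.07 SE, adjusted p = 0.09108 in limma). Thra on the other strand matches 9.9% of the Nr1d1 transcript, so the Nr1d1 level is uncertain by that share.

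The gonadotropin and cAMP machinery drives these genes in the ovary. Of its 19 tested members, 0 were called in limma, in limma-voom or with the block, with 3 at an unadjusted p under 0.05 and a median log2 difference of 0.01. Lhcgr, the receptor for luteinizing hormone, had 25.3, 8.33 and 6.94 FPKM with GSK4112, against 3.39, 5.15 and 6.10 FPKM in Control. GSK4112 replicate 1 was far above the other 5 libraries (1.11 ± 0.45 SE, limma adjusted p = 0.2853), and without both replicate 1 libraries the difference was 0.38. Fshr, the receptor for follicle-stimulating hormone, was at 2.65 to 4.36 FPKM with GSK4112 and at 2.75 to 5.43 FPKM in Control (-0.18, adjusted p = 0.7519 in limma). The most abundant members were the protein kinase A subunit genes Prkar1a, at 107 FPKM with GSK4112 and 112 FPKM in Control, and Prkar2b, at 40.7 and 44.0 FPKM in GSK4112 and Control.

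**Figure D5:**
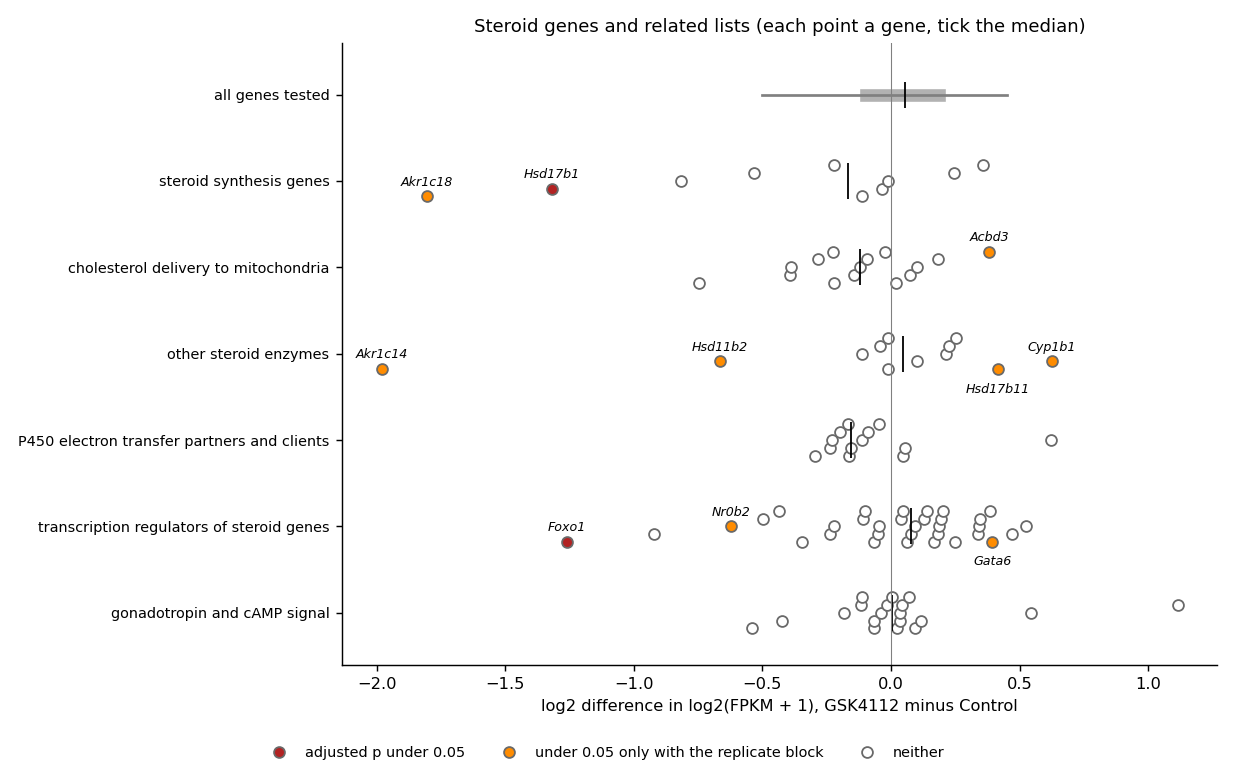
Log2 difference, GSK4112 minus Control, of each tested gene of the steroid set and 5 related lists (points), with the median as a tick, and for all genes the median, the middle 50% (thick bar) and the range from the 5th to the 95th percentile (thin bar). Hsd17b1 and Foxo1 are called without the block, and Akr1c14 and Akr1c18 lie farthest to the left.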

How the data were processed

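RNA of 6 mouse granulosa cell samples, 3 GSK4112 and 3 Control by their titles, had been sequenced in bulk. The deposited table holds FPKM per Ensembl gene, normalized by the authors to library size, per the file headers. The build GRCm38 comes from the submitters' processing notes, while the aligner, counter, annotation and strand setting are not stated in what was used here. The design text speaks of treatment in vivo, while the protocol describes cultured cells, as written here. No dose is printed, since the labels' unit for it is no concentration.

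Symbols, coordinates and exon lengths came from GENCODE M21, which held 27098 of 27151 IDs. FPKM multiplied by exon length gave library totals at which 92.8 to 93.1% of values under 500 fragments were whole within 0.01. A 1 kb gene gained 0.0551 to 0.0604 FPKM per fragment. The 12181 genes whose FPKM averaged at least 1 were fitted as log2(FPKM + 1) in limma 3.58.1 (R 4.3.3) with a variance trend, 2-sided, with Benjamini-Hochberg adjustment over all of them and a threshold of 0.05. The fit was tested on simulated data. Errors of log2 differences are standard errors, and intervals are at 95%. An exact permutation test of 3 against 3 cannot give a p under 0.1.

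The alternatives were another pseudocount (0.1), filter (none, or a mean of at least 5), scaling (TPM, median-of-ratios) or no trend, limma-voom on the recovered fragments, the replicate block, each library left out, and both replicate 1 libraries left out. The block combined with the last, with median-of-ratios or with TPM was chosen after seeing the data. Same-numbered libraries deviated together from their group means (correlations over genes 0.665, 0.326 and 0.213), each over the limit of 0.1 used for pairing. No label gives this pairing, and GSK4112 replicate 2 correlated better with Control replicate 3 (0.530), and GSK4112 replicate 3 with Control replicate 2 (0.357).

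The members and lists were chosen with earlier results of these data known. Named were all members, from each list the called genes and the 2 most abundant, and Cyp19a1, Cyp17a1, Hsd3b6, Nr0b1, Foxl2, Fshr, Lhcgr and Nr1d1. Near-identical copies were sought by aligning the transcripts of named genes to all others at 95% identity.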

Additional observations from a re-analysis of the deposited data

How the results depend on the processing

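Of 18 alternatives, Hsd17b1 kept its direction in all and its call in 13 (log2 difference -1.43 to -1.22), and lost it with no filter (adjusted p = 0.05495) and without 4 single libraries named above. Akr1c18 was called in 6, Cyp11a1 in 4 and Fdx1 in 3, lower each time. With the replicate block 839 genes were called over all genes, 2 members, 1 gene of cholesterol delivery, 4 other steroid enzymes and 3 regulators. With median-of-ratios added to the block these counts were 786, 2, 1, 3 and 4, but not of the same genes. The calls of Acbd3 (0.07114), Hsd17b11 (0.06851) and Gata6 (0.06684), all higher, were lost, and Soat1 (0.04223), Foxl2 (0.04292) and Esr2 (0.04693) were called lower. With TPM added they were 737, 3, 0, 4 and 3, with Acbd3 lost. Without both replicate 1 libraries they were 856, 4, 1, 2 and 2, and with the block as well, where 4 libraries leave 1 residual degree of freedom, 1139, 4, 2, 2 and 4. With no filter 26 genes and 0 members were called (3 members at an unadjusted p under 0.05). A mean of at least 5, median-of-ratios and limma-voom each called 1 other enzyme. Leaving out 1 library gave 0 to 153 genes, 0 to 4 members, 0 to 1 other enzymes and 0 to 1 regulators. The 4 member calls came without Control replicate 1. Where 0 genes were called (without GSK4112 replicate 2, GSK4112 replicate 3 or Control replicate 3), 1224, 1318 and 1843 had an unadjusted p under 0.05. The block changed no other call named above.

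Differences near 0 turned round. Star was -0.12 without both replicate 1 libraries, with or without the block. With 1 library left out in turn, Hsd3b1 ran from -0.51 to 0.35, above 0 without GSK4112 replicate 1 (0.35), Control replicate 2 (0.27) or Control replicate 3 (0.20). Nr5a1 ran from -0.078 to 0.0056 (0.0027 without GSK4112 replicate 1, 0.0056 without Control replicate 2), and was 0.0076 without both replicate 1 libraries. Por ran from -0.31 to 0.058, the last without Control replicate 2. Lonp1 ran from -0.032 (without Control replicate 1) to 0.24 and was -0.042 without both replicate 1 libraries. Me1 ran from -0.38 to 0.075, and was 0.075, 0.071 and 0.043 without GSK4112 replicate 1, Control replicate 2 or Control replicate 3. Pgrmc1 ran from -0.0074 (without Control replicate 3) to 0.14, and was -0.013 with median-of-ratios, with or without the block, and -0.031 without both replicate 1 libraries. Cited2 ran from -0.16 to 0.091 and Prkar2b from -0.20 to 0.045, both highest without GSK4112 replicate 1, and Cited2 was 0.012 without both replicate 1 libraries. The cause was not tested. With 3 libraries a group, a difference like that of Hsd3b1 could be bounded only widely, and depth limits Cyp19a1, Cyp17a1 and Nr0b1.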

Other observations

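Several related genes, chosen after their values were seen, had groups that did not overlap without a call in limma. Such separation was common, at 23.6% of all genes tested. It was found for 8 of 33 transcription regulators and 3 of 15 genes of cholesterol delivery, the lists that hold the genes named here. Nr4a1, an orphan receptor that cAMP induces in steroid-forming cells, had 15.0, 18.0 and 19.3 FPKM with GSK4112, against 49.9, 24.2 and 31.8 FPKM in Control (log2 difference -0.92, adjusted p = 0.1433). Esr2, the estrogen receptor of granulosa cells, had 19.7, 22.9 and 20.4 FPKM with GSK4112, against 30.1, 26.2 and 34.1 FPKM in Control (-0.50, adjusted p = 0.1077 in limma). Soat1, which stores cholesterol as esters, had 33.1, 36.2 and 34.1 FPKM with GSK4112, against 39.4, 50.9 and 47.04 FPKM in Control (-0.39, adjusted p = 0.1484 in limma). It was called lower without both replicate 1 libraries (adjusted p = 0.03801). Gata4, a zinc-finger activator of steroid genes, had 116, 121 and 132 FPKM with GSK4112, against 108, 86.8 and 96.7 FPKM in Control (0.34, adjusted p = 0.1937 in limma).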
